A study of Homo sapiens with 43 samples.

Results

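The CDK inhibitors and the retinoblastoma family, 10 genes in all, were followed in 2 human cancer cell lines and in derivatives of them that the labels call latency-competent cells (LCC). The members were taken by gene symbol from the deposited expression tables. They are the CIP and KIP inhibitors CDKN1A, CDKN1B and CDKN1C, the INK4 inhibitors CDKN2A, CDKN2B, CDKN2C and CDKN2D, and the pocket proteins RB1, RBL1 and RBL2. A gene counted as measured in a line where its mean over all libraries of that line was at least 10, and all 10 members were measured in both lines, among 12535 measured genes of 18085 in H2087 and 15397 of 25369 in HCC1954.

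H2087 is an established lung adenocarcinoma line and HCC1954 an established breast cancer line. Cells were kept subconfluent for 48 h in mitogen-low medium (MLM) or mitogen-rich medium (MRM) and total RNA was sequenced, so every group shares in vitro culture. The H2087 groups were LCC in MLM and LCC in MRM, each with 6 libraries, 1 from each of the derivatives LCC1 to LCC6, and parental cells in MLM and in MRM, with 2 libraries analysed in each medium. The HCC1954 groups were LCC in MLM and LCC in MRM, each with 2 libraries of LCC1 and 2 of LCC2, and parental cells in MLM and in MRM, with 3 libraries each. The labels place the origin of the derivatives in BLI-negative organs, for HCC1954 of mice, and do not say whether a derivative is a clone or a pool. No label ties the libraries of a group to cultures of their own. The p-values thus rest on a spread that, among libraries of the same cells, may be technical. In H2087 LCC that spread is among 6 derivatives. In HCC1954 LCC, 2 libraries of each of 2 derivatives entered as separate replicates. Another parental H2087 library of MLM and 12 chromatin samples were not analysed here.

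As background, cyclin-dependent kinases drive cells through G1 by phosphorylating the pocket proteins RB1 (pRB), RBL1 (p107) and RBL2 (p130), which hold E2F factors and their target genes in check while unphosphorylated. INK4 proteins bind CDK4 and CDK6 and keep D-type cyclins from activating them, whereas CIP and KIP proteins bind cyclin and kinase complexes more broadly, including those of CDK2. RBL2 is known as the pocket protein of the DREAM complex in resting cells, RBL1 as an E2F target that accumulates in cycling cells, and loss of CDKN2A or RB1 is found in many cancers.

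Promoter windows of 300 bases, 250 before and 50 after an annotated start, were at hand from RefSeq (GRCh38.p14) for 9 of the 10 members, in 13 windows. Each was searched on both strands for 3 E2F cores, namely TTTCCCG (in 4.29% of all windows of this length), TTTGGCG (1.92%) and TTTCGCG (1.32%), for the CHR element TTTGAA bound by MuvB complexes and for the GC box GGGCGG bound by SP factors. The window listed for RB1 lies inside the gene, far downstream of its annotated start, so the region before the RB1 start was not searched. Among the windows searched, E2F cores were found for RBL1 alone: TTTCGCG began 26 bases and TTTGGCG 16 bases before its start, with no overlap between them. At least 1 of the 3 cores stood in 7.21% of all 35116 windows. RBL2 held a CHR match 25 bases after its first annotated start, as 15.2% of all windows do, and 7 members held GC boxes, as 45.0% of all windows do. A match is a description of these letters, and no binding was measured here. The 250 bases before the start are shown for RBL1, whose window carries the E2F cores, and for CDKN1A and CDKN2B, which were both higher in MLM in parental HCC1954 cells. Capitals mark the motif letters found on either strand (GC boxes in CDKN1A and CDKN2B), read 5′ to 3′ along the gene.
RBL1, GRCh38.p14, chr20:37095998-37096247, minus strand: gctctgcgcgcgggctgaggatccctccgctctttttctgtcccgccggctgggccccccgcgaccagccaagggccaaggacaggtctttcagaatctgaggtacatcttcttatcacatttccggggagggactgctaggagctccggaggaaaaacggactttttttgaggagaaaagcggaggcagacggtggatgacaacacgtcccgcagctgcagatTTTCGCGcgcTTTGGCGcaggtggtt
CDKN1A, GRCh38.p14, chr6:36678464-36678713, plus strand: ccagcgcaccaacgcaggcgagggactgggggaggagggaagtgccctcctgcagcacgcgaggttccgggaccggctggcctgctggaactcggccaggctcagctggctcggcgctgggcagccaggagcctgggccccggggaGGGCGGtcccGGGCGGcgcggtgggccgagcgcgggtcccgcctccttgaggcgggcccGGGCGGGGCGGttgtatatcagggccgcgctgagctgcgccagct
CDKN2B, GRCh38.p14, chr9:22009306-22009555, minus strand: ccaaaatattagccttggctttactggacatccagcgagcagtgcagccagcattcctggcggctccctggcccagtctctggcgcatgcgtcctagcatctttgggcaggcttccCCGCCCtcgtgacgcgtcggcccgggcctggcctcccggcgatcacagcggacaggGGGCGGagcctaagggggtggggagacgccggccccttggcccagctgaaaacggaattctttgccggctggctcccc

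Values are normalised read counts, that is, reads per gene divided by a library's size factor, which put both media of a line on 1 scale but not the 2 lines, so levels are compared only within a line and a gene. Library totals were 44649263 to 53989129 reads in H2087 LCC of MLM, against 50510816 to 55653300 in parental cells of MLM, and 16192695 to 20847987 in LCC of MRM, against 12131848 to 18112118 in parental cells of MRM. In HCC1954 they were 24931204 to 28119596 in LCC of MLM, against 24852118 to 26654782 in parental cells of MLM, and 28799407 to 39870982 in LCC of MRM, against 32138378 to 44705518 in parental cells of MRM, so medium and depth cannot be told apart. The fewest reads behind any member value were 31, for CDKN1C. The lung factor NKX2-1 reached 81.1 to 163 CPM (reads scaled to a common library total) in H2087 LCC of MLM, although surfactant SFTPC was near 0, and ERBB2, amplified in HCC1954, reached 6503 to 6895 CPM in HCC1954 LCC of MLM. Summed over 8 lung markers, H2087 of MLM reached 834 to 861 CPM in parental cells and 861 to 2343 CPM in LCC. In HCC1954 of MLM the same sum was 3494 to 4164 CPM in parental cells and 2092 to 3219 CPM in LCC. The lung list as a whole therefore did not single out H2087. Of 5 blood cell markers, 2 were measured in H2087. The list summed to 85.7 to 274 CPM in LCC and 212 to 249.4 CPM in parental cells, nearly all of it CD68, a lysosomal protein gene, while haemoglobin HBB, the T cell gene CD3E and pan-leukocyte PTPRC were at or near 0. Of 7 fibroblast markers, 2 were measured in H2087, and the list summed to 8.88 to 29.3 CPM in LCC and 10.997 to 23.0 CPM in parental cells, most of it collagen COL1A1, with DCN at or near 0. In HCC1954 the blood list summed to 18.4 to 42.2 CPM in LCC and 14.3 to 46.8 CPM in parental cells, and the fibroblast list to 26.0 to 37.5 CPM in LCC and 15.1 to 19.7 CPM in parental cells, and their part in the results was not tested. Some libraries stood apart. Between libraries of the same HCC1954 cells and medium the chi-square per degree of freedom was 1.91 to 7.31, but 60.1 and 60.7 between parental library 3 of MLM and the other two, and 118 between library 2 and library 1 of LCC1 in MRM. In H2087, LCC5 and LCC6 of MRM lay at 6.75, while all other pairs of derivatives in MRM lay between 25.2 and 108. Where leaving out these libraries changed a member's call, the value without them is given beside it.

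Differences are log2(value + 1) changes from limma, with adjusted p-values over all measured genes of a line, and a gene was called where the adjusted p was under 0.05. In MLM, 4 of 10 members were called higher and 0 lower in H2087 LCC than in parental cells, where 13.5% of all measured genes were called, 4.9% higher and 8.56% lower. In MRM 0 were called higher and 1 lower in H2087 LCC, against 14.4% of all genes, 8.7% higher and 5.71% lower. In HCC1954, 2 members were called higher and 3 lower in LCC than in parental cells in MLM, against 35.9% of all genes, 17.4% higher and 18.5% lower. In MRM 2 were called higher and 0 lower, against 38.7% of all genes, 19.4% higher and 19.3% lower. These HCC1954 p-values count LCC libraries, 2 from each derivative, and not derivatives. With 1 mean per derivative CDKN2C, RBL1 and RBL2 lost their call in MLM, and RBL2 became called in MRM. The members' median change in H2087 was 0.34 in MLM and 0.14 in MRM, and in HCC1954 it was -0.0022 in MLM and 0.08 in MRM, with medians over all measured genes within 0.01 of 0. Between media, 3 of 10 members were called higher and 0 lower in MLM than in MRM in H2087 LCC, where 32.6% of all genes were called, 15.9% higher and 16.7% lower. In parental H2087 cells 5 were called higher and 5 lower, where 72% of all genes were called, 38% higher and 34% lower. There the MLM and MRM libraries did not overlap for any of the 10 members, nor for 87% of all genes. In HCC1954 LCC, 1 member was called higher and 2 lower in MLM, where 12% of all genes were called, 6.37% higher and 5.6% lower, and 5 members did not overlap, against 23.5% of all genes. In parental HCC1954 cells 3 were called higher and 0 lower, where 44.9% of all genes were called, 24.6% higher and 20.3% lower, and 3 members did not overlap, against 59.4% of all genes. A lower share of cells with a transcript and less transcript per cell cannot be told apart in these bulk libraries.

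**Figure D1:**
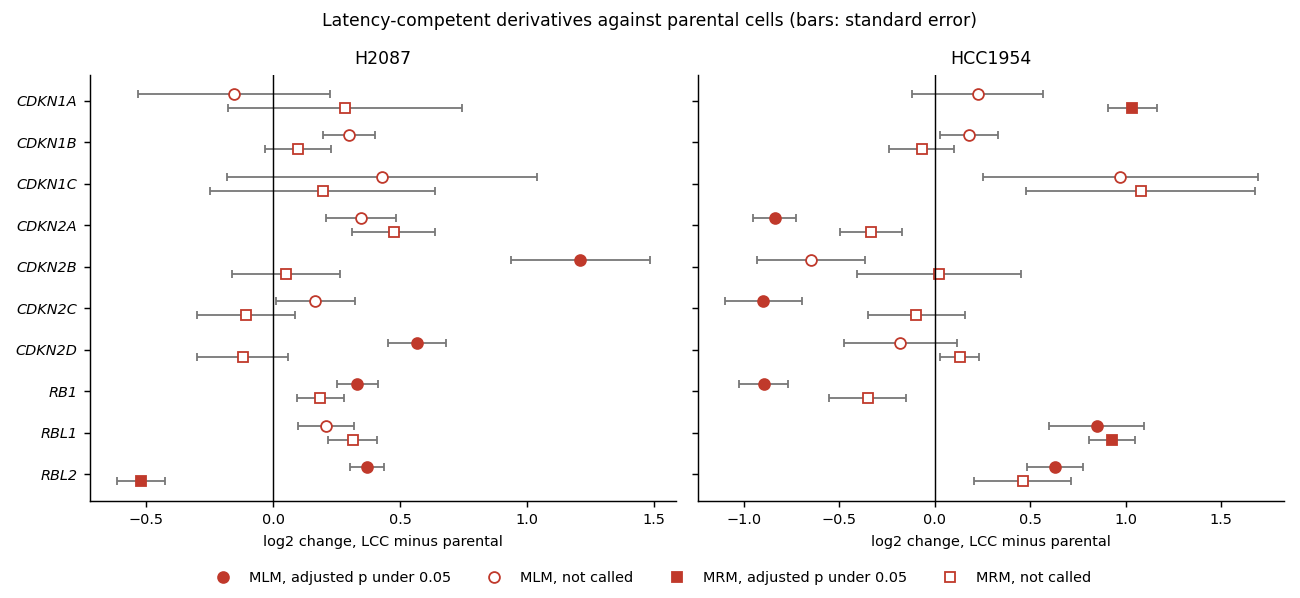
log2 change of each member in LCC against parental cells (x axis) for H2087 and HCC1954, circles for MLM and squares for MRM, filled where the adjusted p was under 0.05, with the standard error as bars. CDKN2B, CDKN2D, RB1 and RBL2 lie to the right in H2087 MLM and RBL2 to the left in MRM, while CDKN2A, CDKN2C and RB1 lie to the left and RBL1 and RBL2 to the right in HCC1954 MLM.

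Among the INK4 inhibitors, CDKN2B, which encodes p15 and is known as a TGF-beta target, was higher in H2087 LCC than in parental cells in MLM. Its normalised read counts were 417 to 987 with a median of 695 in the 6 LCC libraries, against 304 and 277 in the parental libraries, and the groups did not overlap, as for 36.1% of all measured genes. The change was 1.21 ± 0.27 (SE; adjusted p = 0.0253), a 2.31-fold difference. In MRM the LCC libraries read 289 to 543 with a median of 422, against 433 and 373 in parental cells, with a change of 0.05 ± 0.21 (adjusted p = 0.892; 95% interval -0.43 to 0.53). The difference of these 2 changes, 1.16 ± 0.36, missed the threshold (adjusted p = 0.0529) and passed it with derivative names as a block (adjusted p = 0.0138), with edgeR (0.0488), with DESeq2 (0.0159) and without LCC5 and LCC6 (1.31, adjusted p = 0.0418). Set by medium, CDKN2B was higher in MLM than in MRM in all 6 H2087 derivatives, by 0.02 to 1.19, with LCC6 the smallest, and called at 0.69 ± 0.19 (adjusted p = 0.0165). In the parental cells it was lower in MLM by -0.47 ± 0.10 (adjusted p = 0.00447). Leaving out LCC1 or LCC5 ended the LCC call in MLM (adjusted p = 0.0513 and 0.0543). Without parental library 1 or 2 of MLM the LCC change in MLM was 1.28 and 1.14, and the call was lost. With 1 parental library left, the spread comes from the LCC libraries, and far fewer genes were called over all genes as well. Without parental library 2 of MLM the parental change between media was -0.40, and that call was lost.

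In HCC1954, CDKN2B was likewise compared between media. The LCC libraries read 3891 and 3968 (LCC1) and 6000 and 5554 (LCC2) in MLM, against 1897 and 802 (LCC1) and 2948 and 2908 (LCC2) in MRM. That change, 1.33 ± 0.40, was not called without a block (adjusted p = 0.067) and was called with library names as a block (adjusted p = 0.0141), with all 4 LCC libraries higher in MLM. Without library 2 of LCC1 in MRM it was 0.91 and called (adjusted p = 0.04). The parental libraries read 9038, 9762 and 4730 in MLM, against 1873, 1853 and 1890 in MRM, a change of 2.00 ± 0.25 (adjusted p = 0.00134). Library 3 of MLM, the one that stood apart, was the lowest in MLM and still above every MRM library. LCC against parental cells in MLM gave -0.65 ± 0.28 (adjusted p = 0.113), and -0.98 (adjusted p = 0.0158) without parental library 3. In MRM it gave 0.02 ± 0.43 (adjusted p = 0.976), in a group where library 2 of LCC1 read far below the rest.

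CDKN2A, whose row counts reads of p16INK4a and p14ARF together, differed in direction between the lines. In HCC1954 in MLM the LCC libraries read 4023, 4084, 4193 and 4355, against 8110, 8210 and 6209 in parental cells, with no overlap, as for 46.5% of all measured genes. The change was -0.84 ± 0.11 (adjusted p = 0.00152), a call kept under every alternative run. In MRM the LCC libraries read 2640, 1944, 3145 and 2910, against 3344, 3447 and 3131 in parental cells, and the change of -0.34 ± 0.16 was not called (adjusted p = 0.145). CDKN2A was higher in MLM than in MRM by 0.67 ± 0.15 in HCC1954 LCC (adjusted p = 0.0245) and by 1.17 ± 0.11 in parental cells (adjusted p = 0.000556). The LCC call was lost when any LCC library of MLM, or library 2 of LCC2 in MRM, was left out (adjusted p = 0.0547 to 0.07), or with scaling to library totals (0.0698), and was kept with the block. In H2087 the LCC libraries read 4536 to 6714 in MLM, against 4399 and 4662 in parental cells, and 4072 to 6394 in MRM, against 3538 and 4136, with LCC2 the lowest derivative in both media. Neither change was called (0.34, adjusted p = 0.137, in MLM and 0.47, adjusted p = 0.0848, in MRM), and without LCC2 of the medium both were (0.41, adjusted p = 0.0223, and 0.55, adjusted p = 0.0229). Between media, H2087 LCC gave 0.11 ± 0.12 (adjusted p = 0.497), and parental H2087 cells were higher in MLM by 0.24 ± 0.07 (adjusted p = 0.0195). Without parental library 1 or 2 of MLM the parental change was 0.29 and 0.20, and the call was lost. CDKN2A and CDKN2B are adjacent genes with a near-identical stretch of exon sequence, and how the counting treated reads that fit both is not given in the sources used here.

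CDKN2C, which encodes p18, was lower in HCC1954 LCC than in parental cells in MLM, with 360, 316, 345 and 423 in LCC, against 572, 569 and 924 in parental cells. The change was -0.90 ± 0.20 (adjusted p = 0.0118), and it was not called with 1 mean per derivative (adjusted p = 0.0657). In MRM LCC1 read 495 and 354 and LCC2 703 and 734, against 610, 604 and 551 in parental cells, so the derivatives lay on either side of the parental libraries. Within HCC1954 LCC, MLM against MRM gave -0.61 (adjusted p = 0.136), and -0.82 (adjusted p = 0.0265) without library 2 of LCC1 in MRM. In H2087 LCC, CDKN2C was higher in MLM, with 1210 to 1769 and a median of 1464, against 802 to 1346 and a median of 985 in MRM (0.54 ± 0.14, adjusted p = 0.0094), and all 6 derivatives moved this way. Without LCC5 and LCC6 the change was 0.43 and not called (adjusted p = 0.127). Parental H2087 cells read 1306 and 1307 in MLM, against 992 and 1186 in MRM (0.27 ± 0.08, adjusted p = 0.022), a call lost without either parental library of MLM (adjusted p = 0.15 and 0.154). The H2087 LCC and parental libraries overlapped in both media for this gene.

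CDKN2D, which encodes p19INK4d, was higher in H2087 LCC in MLM, with 201 to 247 and a median of 215, against 143 and 151 in parental cells (0.57 ± 0.11, adjusted p = 0.0169). Without parental library 1 or 2 of MLM the change was 0.52 and 0.61, and the call was lost. In MRM the LCC libraries read 147 to 213 with a median of 188, against 202 and 199 in parental cells (-0.12 ± 0.18, adjusted p = 0.686), on 75 reads or more in each library. The difference of the 2 changes was 0.69 ± 0.20 (adjusted p = 0.0416) and was not called with edgeR (0.053) or when 1 of 10 single libraries was left out (adjusted p = 0.0529 to 0.176), nor without LCC5 and LCC6 (0.65, adjusted p = 0.113). MLM against MRM gave 0.24 ± 0.11 in H2087 LCC (adjusted p = 0.111). In parental H2087 cells CDKN2D was lower in MLM than in MRM by -0.44 ± 0.11 (adjusted p = 0.00743), a call lost without either parental library of MLM (adjusted p = 0.121 and 0.079). In HCC1954 LCC, CDKN2D was lower in MLM, with 413, 359, 308 and 343, against 522, 533, 507 and 474 in MRM (-0.52 ± 0.12, adjusted p = 0.0304). That call was lost when 1 of 6 LCC libraries was left out (adjusted p = 0.0507 to 0.0842) and was kept with the block. Parental HCC1954 libraries 1 and 2 of MLM read 313 and 298, and library 3 read 690, against 472, 497 and 427 in MRM. The parental change was -0.21 ± 0.31 (adjusted p = 0.602) with library 3 and -0.60 (adjusted p = 0.000106) without it.

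**Figure D2:**
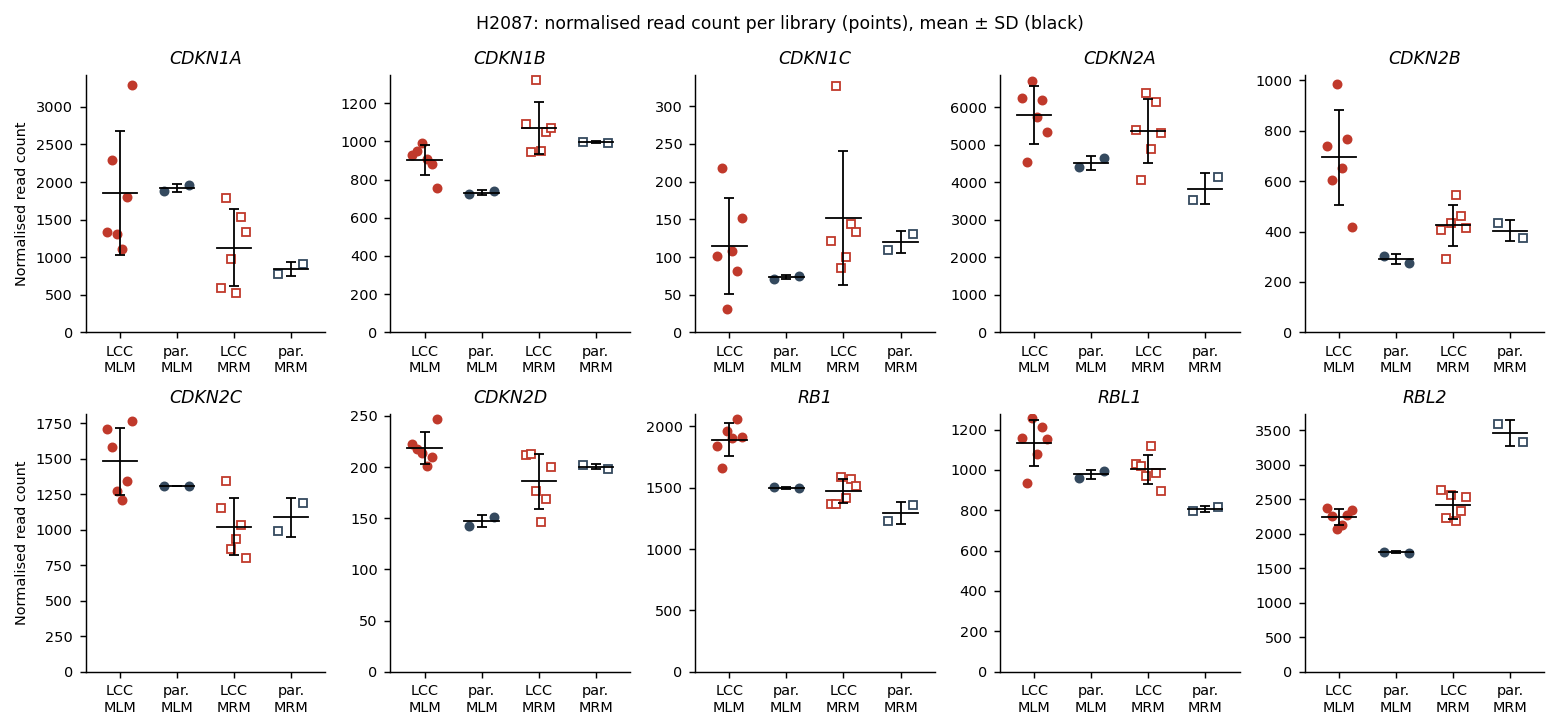
Normalised read count of each member in every H2087 library (points, y axis from 0), with LCC in red and parental cells in dark blue, filled circles for MLM and open squares for MRM, and the mean ± SD in black. The parental libraries of RBL2 lie below the LCC libraries in MLM and above them in MRM, and LCC2 is the highest CDKN1C library of LCC in MRM.

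Of the CIP and KIP inhibitors, CDKN1A (p21, the best known p53 target among them) was higher in HCC1954 LCC than in parental cells in MRM. LCC1 read 3631 and 3640 and LCC2 2830 and 2759, against 1567, 1626 and 1484 in parental cells. The groups did not overlap, as for 51.8% of all measured genes, and the change of 1.03 ± 0.13 (adjusted p = 0.000971) was called under every alternative run. In MLM LCC1 read 7580 and 7384 and LCC2 3344 and 3335, against 3824, 3939 and 5216 in parental cells, so that the derivatives lay on either side of the parental cells and the change was 0.22 ± 0.35 (adjusted p = 0.651). The difference of the 2 changes was -0.81 ± 0.39 (adjusted p = 0.526; 95% interval -1.66 to 0.05). MLM against MRM gave 0.65 ± 0.31 in HCC1954 LCC, not called without the block (adjusted p = 0.202) and called with it (0.0378), and 1.46 ± 0.12 in parental cells (adjusted p = 0.000336). In H2087 LCC CDKN1A read 1108 to 3292 with a median of 1568 in MLM, against 526 to 1791 with a median of 1154 in MRM. The derivatives differed widely, yet each was higher in MLM, by 0.23 in LCC5 to 1.31 in LCC6, and the change of 0.76 ± 0.34 was called only with the block (adjusted p = 0.111 without it and 0.00286 with it). In H2087 parental cells CDKN1A read 1884 and 1958 in MLM, against 775 and 905 in MRM (1.20 ± 0.08, adjusted p = 7.23e-06). H2087 LCC and parental cells overlapped in both media.

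CDKN1B (p27, which accumulates in resting cells mainly through slower breakdown of the protein) was called only between media and between derivatives. In H2087 LCC it read 757 to 989 with a median of 918 in MLM, against 944 to 1319 with a median of 1059 in MRM, lower in 5 of 6 derivatives (-0.24 ± 0.09, adjusted p = 0.0582). That change was called with the block (adjusted p = 0.0256), by DESeq2 (0.0299) and without LCC2 or LCC4 of MRM (0.0378 and 0.0416). In H2087 parental cells CDKN1B was lower in MLM, with 722 and 740, against 998 and 990 in MRM (-0.44 ± 0.06, adjusted p = 0.000255). In MLM every H2087 LCC library lay above both parental libraries, and the change of 0.30 ± 0.10 was not called (adjusted p = 0.0927), but was called by DESeq2 (adjusted p = 0.0475) and without LCC6 (0.35, adjusted p = 0.0179) or without both LCC5 and LCC6 (0.37, adjusted p = 0.027). In HCC1954 the LCC and parental libraries overlapped in both media and the difference was not called.

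CDKN1C (p57, an imprinted gene) had few reads and varied widely between derivatives. H2087 LCC read 31.4 to 218 with a median of 105 in MLM, against 71.1 and 75.2 in parental cells, and 85.2 to 327 with a median of 127 in MRM, against 109 and 130. LCC2 was the highest derivative in both media, and LCC against parental cells was not called in either (0.43, adjusted p = 0.694, and 0.19, adjusted p = 0.796). Parental H2087 cells were lower in MLM than in MRM by -0.70 ± 0.15 (adjusted p = 0.00471), a call lost without either parental library of MLM (adjusted p = 0.0775 and 0.0595). In HCC1954, LCC2 read 369 and 339 and LCC1 68.8 and 90.3 in MLM, against 109, 139 and 40.4 in parental cells. In MRM LCC2 read 168 and 180 and LCC1 63.7 and 31.3, against 48.7, 36.4 and 40.0 in parental cells. LCC against parental cells in MRM was 1.08 ± 0.60 (adjusted p = 0.195), and 1.57 (adjusted p = 0.0197) without library 2 of LCC1; DESeq2 called it with all libraries (adjusted p = 0.0381). MLM against MRM in parental HCC1954 cells gave 1.02 ± 0.44 (adjusted p = 0.0948; 0.0491 by edgeR), and 1.55 (adjusted p = 2.16e-05) without library 3 of MLM.

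**Figure D3:**
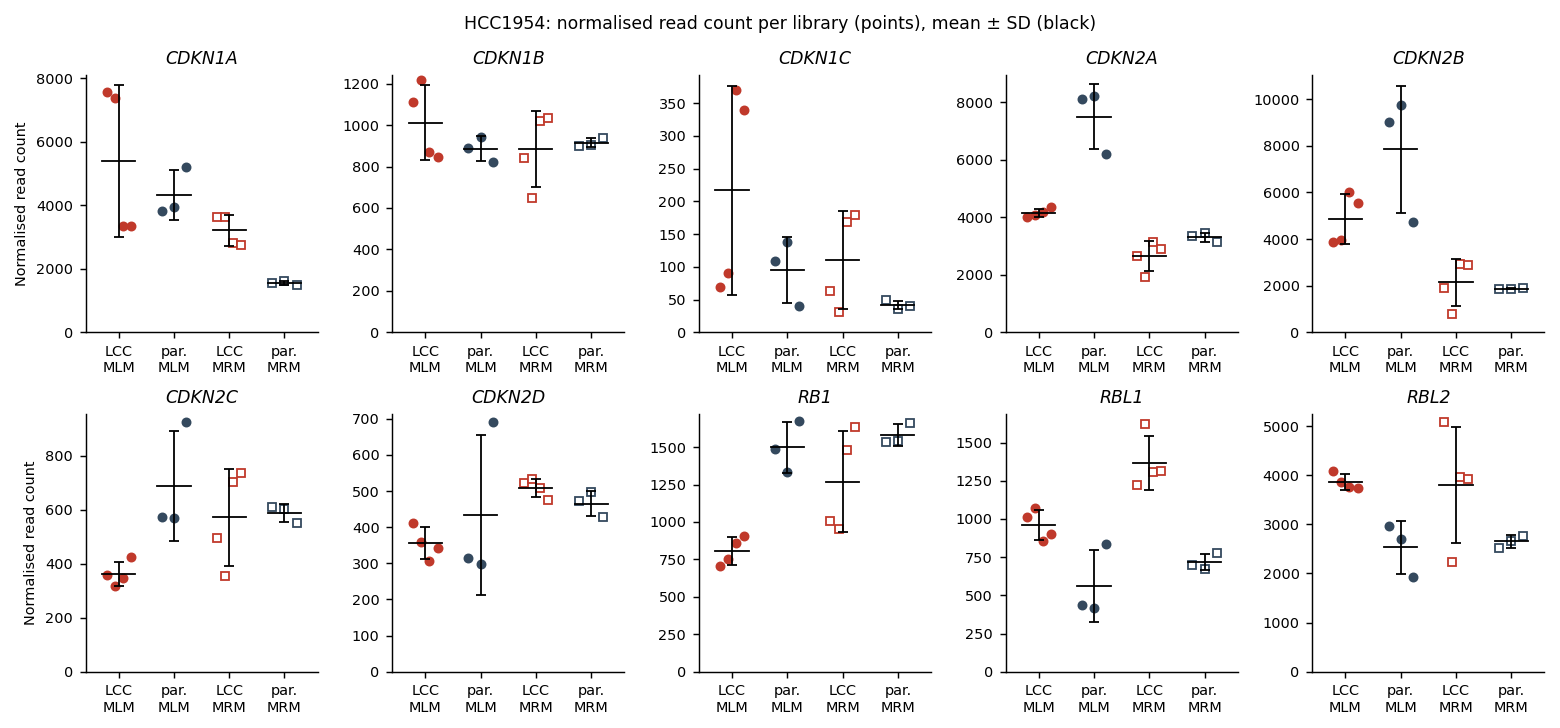
Normalised read count of each member in every HCC1954 library (points, y axis from 0), with LCC in red (LCC1 then LCC2) and parental cells in dark blue, filled circles for MLM and open squares for MRM, and the mean ± SD in black. RBL1 is higher in every LCC library than in the parental libraries of the same medium, CDKN2A is lower in every LCC library of MLM, and parental library 3 of MLM lies apart for CDKN2B, CDKN2C, CDKN2D and RBL1.

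Of the pocket proteins, RB1 was called lower and RBL1 and RBL2 higher in HCC1954 LCC than in parental cells in MLM, whereas RB1 and RBL2 were both called higher in H2087 LCC in MLM. RB1 in HCC1954 LCC of MLM read 705 and 750 in LCC1 and 862 and 905 in LCC2, against 1487, 1337 and 1674 in parental cells (-0.90 ± 0.13, adjusted p = 0.00189), a call kept under every alternative run. In MRM LCC1 read 1009 and 953 and LCC2 1483 and 1635, against 1535, 1541 and 1664 in parental cells (-0.35 ± 0.20, adjusted p = 0.208). RB1 was thus below the parental range in LCC1 in both media, and in MRM 1 of 2 LCC2 libraries lay within it. Within HCC1954 LCC, MLM was lower than MRM in all 4 libraries, by -0.62 ± 0.20 (adjusted p = 0.0735). That change was called with the block (adjusted p = 0.013), by DESeq2 (0.0163) and without library 2 of LCC1 in MRM (-0.75, adjusted p = 0.0394). In parental HCC1954 cells RB1 gave -0.08 (adjusted p = 0.507) between media, and -0.16 (adjusted p = 0.0404) without library 3 of MLM. In H2087 the direction was the other way: LCC of MLM read 1661 to 2060 with a median of 1908, against 1503 and 1495 in parental cells (0.33 ± 0.08, adjusted p = 0.0331). LCC of MRM read 1369 to 1586 with a median of 1466, against 1230 and 1357 in parental cells (0.18 ± 0.09, adjusted p = 0.21). RB1 was also higher in MLM in parental H2087 cells (0.21 ± 0.06, adjusted p = 0.0136; 0.131 and 0.122 without 1 parental library of MLM). It was higher in MLM in all 6 H2087 derivatives, by 0.28 to 0.43 (0.36 ± 0.06, adjusted p = 0.001), with no overlap between the media, as for 16.1% of all measured genes, and this call was kept under every alternative run. The call of LCC against parental cells in MLM was lost without LCC1, LCC3 or LCC5, and without LCC5 and LCC6 together (adjusted p = 0.0579 to 0.07115). Without parental library 1 or 2 of MLM this change was 0.34 and 0.33, and the call was lost.

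RBL1 (p107) was higher in HCC1954 LCC than in parental cells in both media. In MRM the LCC libraries read 1221, 1624, 1306 and 1317, against 697, 675 and 775 in parental cells (0.93 ± 0.12, adjusted p = 0.00116), a call kept under every alternative run. In MLM they read 1011, 1074, 856 and 901, against 435, 415 and 833 in parental cells (0.85 ± 0.25, adjusted p = 0.0321). Parental library 3 of MLM lay just below the LCC libraries, and the MLM call was lost when 1 of 5 other libraries was left out (adjusted p = 0.0536 to 0.121) or with 1 mean per derivative (0.132). RBL1 was lower in MLM than in MRM in all 4 HCC1954 LCC libraries (-0.51 ± 0.12, adjusted p = 0.0343), which was kept with the block and lost when 1 of 6 LCC libraries was left out (adjusted p = 0.0516 to 0.0925). In the parental cells the change was -0.43 ± 0.26 (adjusted p = 0.212) with library 3 of MLM and -0.75 (adjusted p = 8.66e-06) without it. Summed MKI67, TOP2A, CCNB1 and CDK1, markers of cycling cells, moved with it: 802 to 993 CPM in HCC1954 LCC of MLM, against 1772 to 2067 CPM in MRM, and 806, 772 and, in library 3, 1258 CPM in parental cells of MLM, against 1568 to 1694 CPM in MRM. Their part in the RBL1 change was not tested. In H2087 the same sum was 1539 to 1766 CPM in LCC of MLM, against 1486 to 1721 CPM in MRM. In parental H2087 cells it was 1576 and 1531 CPM in MLM, against 1492 and 1494 CPM in MRM. RBL1 was higher in MLM in these parental cells, with 962 and 993, against 797 and 815 in MRM (0.28 ± 0.06, adjusted p = 0.00299). Without parental library 1 or 2 of MLM the RBL1 change was 0.30 and 0.25, and the call was lost. In H2087 LCC the RBL1 change was 0.17 ± 0.08 (adjusted p = 0.109), and 0.27 (adjusted p = 0.0098) with scaling to library totals. H2087 LCC against parental cells gave 0.21 ± 0.11 for RBL1 in MLM (adjusted p = 0.251), and 0.26 without LCC2 of MLM (adjusted p = 0.0434). In MRM it gave 0.31 ± 0.10 (adjusted p = 0.0629), called by DESeq2 (adjusted p = 0.0302). The MRM groups did not overlap for RBL1, as for 37.8% of all measured genes.

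RBL2 (p130) differed between LCC and parental cells in opposite directions in the 2 media in H2087. LCC read 2067 to 2373 with a median of 2267 in MLM, against 2184 to 2635 with a median of 2427 in MRM (-0.10 ± 0.06, adjusted p = 0.222). Parental cells read 1741 and 1725 in MLM, against 3585 and 3325 in MRM (-0.99 ± 0.05, adjusted p = 2.14e-06). LCC therefore lay above parental cells in MLM (0.37 ± 0.07, adjusted p = 0.0115) and below them in MRM (-0.52 ± 0.09, adjusted p = 0.0104), without overlap in either medium, as for 37.8% of all measured genes in MRM. The difference of the 2 changes was 0.89 ± 0.11 (adjusted p = 0.000294) and was kept under every alternative run. Each change taken alone lost its call when 1 parental library of that medium was left out. It was then 0.38 and 0.36 in MLM and -0.47 and -0.58 in MRM. There the lone parental library is assumed to vary like the other group. Of all measured genes 10.7% were called for such a difference, 4.08% upward and 6.64% downward, and 2 of 10 members were, both upward. In HCC1954 LCC of MLM RBL2 read 4082, 3861, 3751 and 3741, against 2963, 2696 and 1935 in parental cells (0.63 ± 0.15, adjusted p = 0.0135; 0.0849 with 1 mean per derivative). In MRM it read 5092 and 2227 in LCC1 and 3956 and 3923 in LCC2, against 2518, 2668 and 2769 in parental cells. That change was 0.46 ± 0.25 (adjusted p = 0.193). It was called with 1 mean per derivative (adjusted p = 0.02), which joins the 2 LCC1 libraries. Without library 2 of LCC1 every LCC library lay above the parental ones (0.70, adjusted p = 0.00345).

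**Figure D4:**
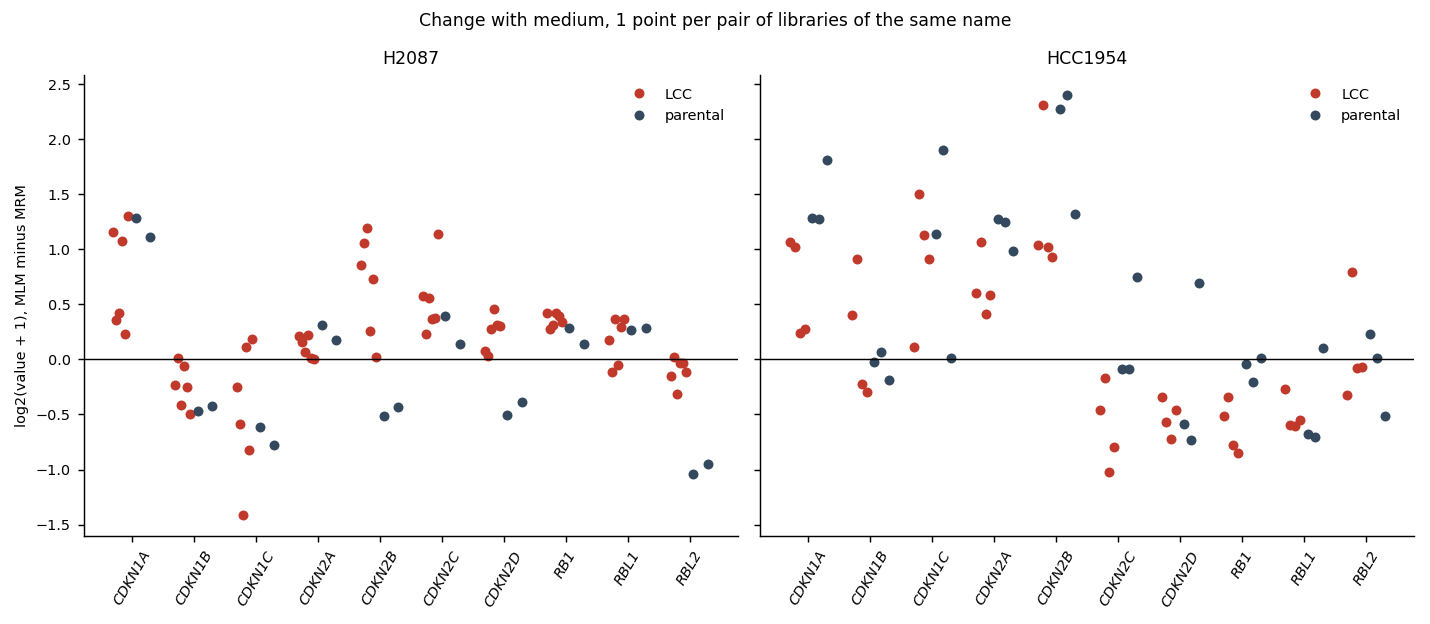
Change of each member with medium, log2(value + 1) in MLM minus MRM (y axis), for every pair of libraries of the same name, LCC in red and parental cells in dark blue. In H2087 the parental points of CDKN2B, CDKN2D and RBL2 lie below 0 while the LCC points of CDKN2B and CDKN2D lie above it and those of RBL2 between -0.31 and 0.02. In HCC1954, CDKN1A, CDKN2A and CDKN2B lie above 0 for all pairs.

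Tested over all genes, the LCC change differed between media for RBL2 and CDKN2D in H2087 and for no member in HCC1954 by limma, edgeR or DESeq2, where 0.156% of all measured genes were called by limma, 0.0649% upward and 0.0909% downward. Of the HCC1954 members, 3 had an unadjusted p under 0.05. With parental library 3 of MLM and library 2 of LCC1 in MRM both left out, a choice made after seeing the data, 2 members were called, CDKN2A at -0.78 (adjusted p = 0.00996) and CDKN2B at -1.42 (adjusted p = 0.0491), where 1.21% of all genes were called. With the same 2 libraries left out, 7 members rather than 3 were called between media in parental HCC1954 cells, where 66.7% of all genes were called, and 6 rather than 3 in LCC, where 13.8% were.

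The 2 HCC1954 derivatives differed from each other in 3 members in MLM and 6 in MRM. In MRM, 5 members were called higher and 1 lower in LCC2 than in LCC1 (35.1% of all genes called, 16.5% higher and 18.7% lower), and 8 members did not overlap, against 66.9% of all genes. In MLM 1 was called higher and 2 lower (39% of all genes called, 19% higher and 20% lower), and 9 members did not overlap, against 82.7% of all genes. CDKN1A was lower in LCC2 in both media (-1.16 ± 0.14, adjusted p = 0.00153, in MLM and -0.38 ± 0.07, adjusted p = 0.00775, in MRM) and CDKN1C higher (2.15 ± 0.53, adjusted p = 0.0179, and 1.94 ± 0.33, adjusted p = 0.00613). CDKN1B was lower in LCC2 in MLM (-0.44 ± 0.09, adjusted p = 0.0109) and higher in MRM (0.48 ± 0.13, adjusted p = 0.0265). RB1 (0.67 ± 0.09, adjusted p = 0.00235), CDKN2C (0.78 ± 0.16, adjusted p = 0.0115) and CDKN2B (1.25 ± 0.34, adjusted p = 0.0318) were higher in LCC2 in MRM. Without library 2 of LCC1 in MRM the CDKN2B change was 0.63, the CDKN1B change 0.29 and the CDKN2C change 0.54, and CDKN2A gave 0.20, against 0.42 with it. CDKN1A in MLM and RB1 in MRM were called under every alternative run, and each of the other calls was lost without at least 1 library. Each arm had 2 libraries, of which library 2 of LCC1 in MRM stood apart, and without it RBL2 gave -0.37, against 0.23 with it (adjusted p = 0.627). LCC1 of MRM is then 1 library, whose spread is taken from the other groups, so values without library 2 are given here without a p. With parental library 3 of MLM left out of the shared spread, 6 members rather than 3 were called in MLM, where 62.6% of all genes were called, the additional ones being CDKN2B (0.55), RB1 (0.28) and RBL1 (-0.25).

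The genes next to a member on its chromosome were set beside it, 5 measured genes on either side in RefSeq order. In HCC1954, RBL1 on chromosome 20 had 7 of 10 neighbours called higher in LCC in MLM and 7 of 10 in MRM, with median changes of 0.97 and 0.88, close to its own. Of all measured genes, 17.4% were called higher and 18.5% lower in MLM, and 19.4% higher and 19.3% lower in MRM. DSN1, a kinetochore gene, changed by 1.24 ± 0.20 in MLM and 1.13 ± 0.08 in MRM, and TGIF2, a repressor of TGF-beta signalling, by 1.06 ± 0.20 and 1.18 ± 0.14. Around RB1 on chromosome 13, 5 of 10 neighbours were called lower in LCC in MLM and 4 of 10 in MRM, with medians of -0.52 and -0.32. LPAR6, a receptor gene that lies within an intron of RB1, fell by 1.86 ± 0.51 in MLM (adjusted p = 0.0259) and fell by 3.76 ± 0.41 in MRM (adjusted p = 0.000625). Around CDKN2C on chromosome 1, 5 of 10 neighbours were called lower in MLM, with a median of -0.46, and around RBL2 on chromosome 16, which was higher, 1 was called higher and 2 lower. Neighbours also changed around members that were not called. Around CDKN2D on chromosome 19, 7 of 10 were called lower in MLM and 5 in MRM, while CDKN2D gave -0.18 and 0.13. Around CDKN1A on chromosome 6, 5 of 10 were called higher in MLM, where CDKN1A gave 0.22. In H2087 the 10 neighbours of RBL2 had medians of 0.20 in MLM and -0.07 in MRM, with 1 called higher in each. Of all H2087 genes, 4.9% were called higher in MLM and 8.7% in MRM. Neighbours share whatever acts on the region, copy number was not measured, and its part in these changes was not tested.

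**Figure D5:**
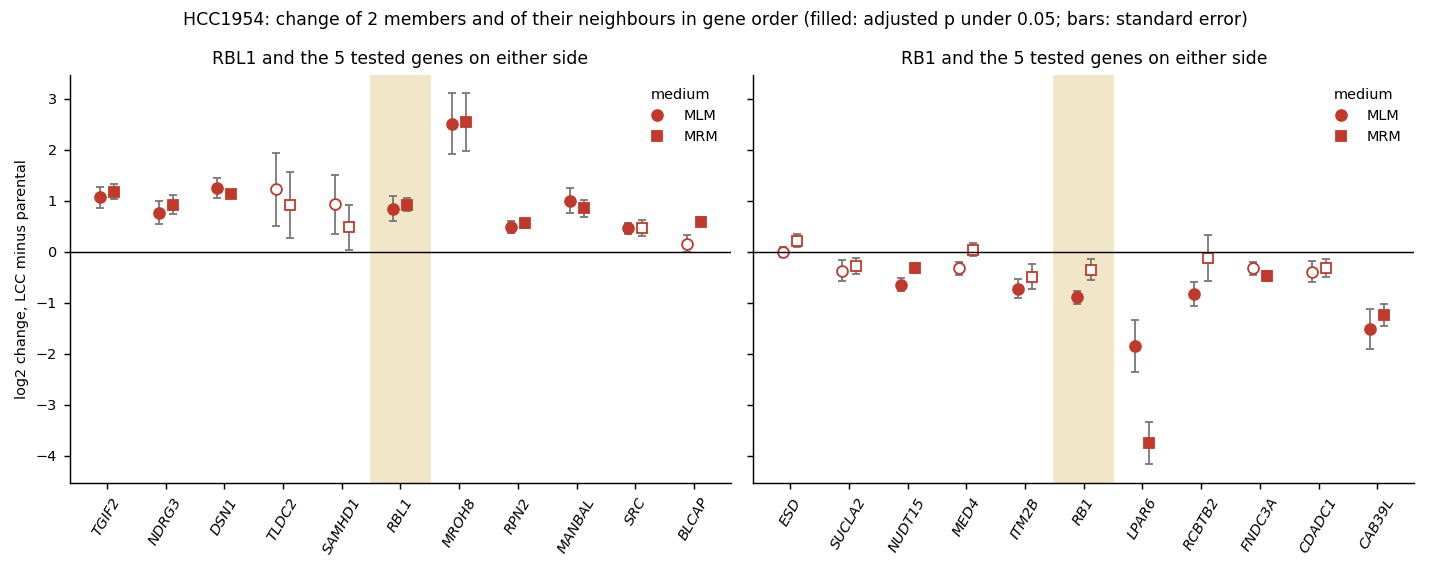
log2 change in HCC1954 LCC against parental cells (y axis) of RBL1 and of RB1 (shaded) and of the 5 measured genes on either side in gene order (x axis), circles for MLM and squares for MRM, filled where the adjusted p was under 0.05, with the standard error as bars. All 10 neighbours of RBL1 lie above 0 in both media, and LPAR6 is the lowest of the neighbours of RB1.

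Other genes of the pathway were taken from lists that were written with earlier results of these data known, so they lend no independent support. Each count stands beside the share of all measured genes called in its comparison. Between media that share was 72% in parental H2087 cells, 32.6% in H2087 LCC, 44.9% in parental HCC1954 cells and 12% in HCC1954 LCC. For LCC against parental cells it was 13.5% in MLM and 14.4% in MRM in H2087. In HCC1954 it was 35.9% in MLM and 38.7% in MRM, and for LCC2 against LCC1 39% in MLM and 35.1% in MRM. Of 18 E2F target genes, 6 were called higher in MLM than in MRM in H2087 LCC and 14 in parental H2087 cells, with list medians of 0.15 and 0.49 beside 0.01 and 0.04 over all genes. RRM2, a ribonucleotide reductase subunit, changed by 0.68 ± 0.09 in LCC (adjusted p = 0.000118) and by 1.14 ± 0.09 in parental cells (adjusted p = 1.65e-05), and the licensing factor CDC6 by 0.93 ± 0.05 in parental cells (adjusted p = 3.31e-06). In HCC1954 LCC the direction was the other way: 6 of 18 were called lower in MLM, with a list median of -0.36 beside 0.02 over all genes, among them the cyclin CCNA2 (-0.90 ± 0.14, adjusted p = 0.009) and the clamp PCNA (-0.73 ± 0.11, adjusted p = 0.00749). In LCC against parental cells in MRM, 7 of 18 were called higher in H2087 (median 0.33) and 5 higher and 2 lower in HCC1954 (median 0.19). The HCC1954 count lies near the 38.7% of all genes called there. In MLM 0 of 18 were called in H2087 (median 0.07), and 0 higher and 1 lower in HCC1954 (median 0.0003). In LCC2 against LCC1, 6 of 18 were called lower in MLM and 10 in MRM, led by CDC6 in MLM (-1.64 ± 0.35, adjusted p = 0.0107) and by the helicase subunit MCM6 in MRM (-1.18 ± 0.09, adjusted p = 0.000543).

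Among 8 measured G1 cyclins and kinases, 3 were called higher in MLM in H2087 LCC, led by cyclin E2, CCNE2 (0.83 ± 0.11, adjusted p = 0.000179), and 7 in parental H2087 cells, led by cyclin D1, CCND1 (1.37 ± 0.05, adjusted p = 4.82e-07). Of all genes, 32.6% were called in LCC, 15.9% higher, and 72% in parental cells, 38% higher. CCND1 was higher in H2087 LCC than in parental cells in MRM (1.27 ± 0.17, adjusted p = 0.00303), and its LCC change differed between media (-1.06 ± 0.18, adjusted p = 0.00256). In HCC1954 LCC against parental cells 1 of the 8 was called higher and 2 lower in each medium. That count lies near the 35.9% of all genes called in MLM and the 38.7% in MRM. CDK4 was lower by -0.76 ± 0.10 in MLM (adjusted p = 0.00161) and -0.44 ± 0.09 in MRM (adjusted p = 0.00862), and CDK2 by -0.89 ± 0.20 (adjusted p = 0.0121) and -0.84 ± 0.11 (adjusted p = 0.00113). CCND3 was higher, by 0.63 ± 0.13 (adjusted p = 0.00946) and 0.71 ± 0.08 (adjusted p = 0.000812).

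Of 10 E2F and DP factors in HCC1954, LCC against parental cells gave 1 higher and 3 lower in MLM and 4 higher and 3 lower in MRM. The MLM count lies near the 35.9% of all genes called there, and in MRM 38.7% were called. E2F5, which partners pocket proteins as a repressor, was higher by 2.72 ± 0.60 in MLM (adjusted p = 0.0109) and 2.79 ± 0.34 in MRM (adjusted p = 0.000869), and the activator E2F3 was lower by -0.95 ± 0.12 (adjusted p = 0.00118) and -0.90 ± 0.16 (adjusted p = 0.00383). In H2087 LCC of MLM, E2F5 (-0.90 ± 0.18, adjusted p = 0.0153) and E2F2 (-0.88 ± 0.14, adjusted p = 0.00735) were lower than in parental cells. Of 9 MuvB and DREAM partners, 5 were called higher in MLM in H2087 LCC and 6 in parental H2087 cells, among them FOXM1, a driver of mitotic genes (0.61 ± 0.07, adjusted p = 4.02e-05 in LCC, and 0.58 ± 0.06, adjusted p = 9.47e-05 in parental cells). In HCC1954 LCC against parental cells 2 of the 9 were called lower in MLM, and 1 was called higher and 4 lower in MRM.

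Of 15 genes of the p53 list beside CDKN1A, 3 were called higher and 9 lower in MLM in parental H2087 cells, where CDKN1A itself was higher, and 12 of 15 lies near the 72% of all genes called there. The kinase PLK2 (2.93 ± 0.09, adjusted p = 3.5e-07) and the oxidoreductase TP53I3 (2.13 ± 0.10, adjusted p = 1.7e-06) were higher, and the apoptosis gene BBC3 was lower (-1.48 ± 0.10, adjusted p = 8.86e-06). In parental HCC1954 cells 5 were called higher and 1 lower in MLM, beside 44.9% of all genes called, with TP53I3 at 1.78 ± 0.14 (adjusted p = 0.00028). In HCC1954 LCC against parental cells 2 were called higher and 6 lower in MLM and 2 higher and 4 lower in MRM, with TP53INP1 at -1.50 ± 0.23 (adjusted p = 0.00239) and -1.48 ± 0.31 (adjusted p = 0.0088). Of all genes, 35.9% were called in MLM and 38.7% in MRM.

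Of 13 genes of TGF-beta signalling, whose target CDKN2B is, 6 were called higher and 4 lower in MLM in parental H2087 cells (72% of all genes called) and 6 higher and 2 lower in parental HCC1954 cells (44.9% called). In H2087 LCC against parental cells in MLM, where CDKN2B was called, 1 of 13 was called higher and 0 lower (13.5% called). In H2087 LCC of MRM 5 were called higher than in parental cells, led by the ligand TGFB2 (2.00 ± 0.35, adjusted p = 0.00893), which differed between media (-2.78 ± 0.55, adjusted p = 0.0057). In HCC1954 LCC of MLM 4 were called higher and 2 lower than in parental cells, with the ligand TGFB1 at -2.33 ± 0.14 (adjusted p = 0.000106). Of 11 genes of p27 turnover and FOXO factors, 4 were called higher and 5 lower in MLM in parental H2087 cells, beside 72% of all genes. SKP2, which targets p27 for breakdown, was higher (1.07 ± 0.05, adjusted p = 1.15e-06), and FOXO4, an activator of CDKN1B, was lower (-2.09 ± 0.13, adjusted p = 4.96e-06). The FOXO4 change in LCC differed between media (1.56 ± 0.23, adjusted p = 0.000748).

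Of 10 Polycomb regulators of the INK4 genes, 3 were called higher and 2 lower in MLM in HCC1954 LCC and 5 higher and 1 lower in parental cells. Of all genes, 12% were called in LCC and 44.9% in parental cells. BMI1, a repressor of CDKN2A, was higher in MLM by 1.40 ± 0.24 in LCC (adjusted p = 0.0113) and by 2.10 ± 0.16 in parental cells (adjusted p = 0.000247), and lower in LCC than in parental cells in MLM (-1.51 ± 0.24, adjusted p = 0.00284) and MRM (-0.81 ± 0.20, adjusted p = 0.0158). EZH2, the Polycomb methyltransferase, was lower in LCC as well (-1.14 ± 0.20, adjusted p = 0.00456, in MLM and -0.90 ± 0.19, adjusted p = 0.00841, in MRM). Against parental cells, 1 of the 10 was called higher and 3 lower in HCC1954 LCC of MLM, and 0 higher and 3 lower in MRM. Those counts lie near the 35.9% of all genes called in MLM and the 38.7% in MRM. In H2087 LCC of MLM BMI1 was lower than in parental cells too (-0.83 ± 0.17, adjusted p = 0.0177).

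The genes most like a member were ranked by Pearson's r of log2(value + 1) over the 16 H2087 or 14 HCC1954 libraries. Those libraries differ in cell type, medium and depth, and the part of these differences in r was not tested. In H2087 the genes ranked first were CHD9 for CDKN2B (0.88), CHMP2A for CDKN2D (0.88), MBNL1 for RB1 (0.98) and RXRB for RBL2 (0.96). In HCC1954 they were JDP2 for CDKN2A (0.99), CEBPA for CDKN2B (0.99), FAM64A for CDKN2D (0.96), ATP6V1A for RB1 (0.98), NEIL3 for RBL1 (0.98) and NF1 for RBL2 (0.95). For CDKN2C in HCC1954 the second in rank was RB1 (0.91), and for RBL1 the third was its neighbour DSN1 (0.97). These values describe the libraries at hand.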

How the data were processed

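RNA libraries of H2087 and HCC1954 cells were analysed, 30 in all, each placed in its group by the labels. Per the submitters' processing notes, Bowtie2 2.2.4, HTSeq 0.6.1p1 and DESeq2 1.8.1 were used with hg19 or GRCh37. The deposited values are a signal made by the authors, reads per gene divided by a size factor. All values came out as whole reads within 0.01 reads. Median-of-ratios factors over both media of a line matched the deposited ones to 3.8e-11 in H2087 and 4.58e-11 in HCC1954, so both media of a line were normalised together. The strand and the treatment of shared reads in the counting are not given in the sources used here.

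Genes with a line mean of at least 10 were tested with limma 3.58.1 (R 4.3.3) on log2(value + 1) with a trended prior, two-sided, with Benjamini-Hochberg adjustment over all of them. Adjusted p-values under 0.05 were called. A fold change on this scale understates the change of low genes. The fits were tested on simulated data with known changes. Alternatives were edgeR 4.0.16 and DESeq2 1.42.0 on the recovered reads, scaling to library totals, a pseudocount of 10, a filter on a mean of 1, leaving out libraries, 1 mean per derivative and a block on library names. In H2087 LCC against parental cells in MLM limma called 1687 genes and edgeR 1799.

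LCC libraries of the same name come from the same derivative, and their deviations from the group means correlated between media (0.411 to 0.756 in H2087 and 0.507 to 0.698 in HCC1954). In HCC1954, libraries of the same derivative with different numbers correlated about as much (0.497 to 0.689). There the values do not single out the pairing by number. In H2087, LCC6 of MLM correlated with LCC5 of MRM (0.406) about as much as with its namesake (0.411). All 10 members were tested in every comparison, and not every change that was not called is described. From each pathway list up to 4 called genes with the largest change in a comparison were eligible to be named. The members and lists were chosen with earlier results of these data known.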

Additional observations from a re-analysis of the deposited data

Results flagged for a closer look

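CDKN1C in H2087 LCC of MRM had 1 library far from the others: LCC2 read 327 normalised counts, and the next highest, LCC5, read 143. Chance sets a library apart in this way in about 1 in 20 groups. Each of the 10 members was examined in every LCC group of both lines, so 1 such value may be chance. Parental groups, with 2 or 3 libraries, were too small to be examined. CDKN2D and RBL2 in H2087 differed in their LCC change between the media, by 0.69 (CDKN2D) and 0.89 (RBL2) on the log2 scale for MLM minus MRM.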

How the results depend on the processing

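Over 1850 recomputed values of single members, 1681 kept their side of the threshold, 76 became called, 91 lost their call and 2 reversed. A change of sign counted as a reversal only where at least 1 of the 2 fits was called. Values that changed sign without a call in either fit are among the 1681. Both reversals are RBL2 in HCC1954 LCC2 against LCC1 in MRM, -0.37 without library 2 of LCC1 in MRM, with or without parental library 3 of MLM. Leaving out each library in turn, this change ranged from -0.37 to 0.82. Counts of members called moved by over 1.5 times in these cases. DESeq2 called 3 in H2087 LCC against parental cells in MRM (1 by limma) and 6 in HCC1954 LCC between media (3 by limma). Scaling to library totals called 5 in H2087 LCC between media (3 otherwise). The filter on a mean of 1 called 1 for the H2087 difference of LCC changes (2 otherwise), and 1 mean per derivative called 2 in HCC1954 LCC against parental cells in MLM (5 otherwise). Without both outlying HCC1954 libraries, 4 were called in LCC against parental cells in MRM (2 otherwise), 6 in LCC between media (3), 7 in parental cells between media (3), 2 for the difference of LCC changes (0) and 6 in LCC2 against LCC1 in MLM (3). In the same order, the share of all genes called was then 48.5% (38.7% otherwise), 13.8% (12%), 66.7% (44.9%), 1.21% (0.156%) and 62.6% (39%). With library names as a block, which pair the LCC libraries, 5 were called in H2087 LCC between media and 8 in HCC1954 LCC. In HCC1954 that pairing goes by number within a derivative. With derivatives as a block, added after seeing the data, 8 were called in HCC1954 LCC. Parental libraries share only a number (correlations of 0.0515 in H2087 and 0.0183, 0.116 and 0.0814 in HCC1954, each library closest to its own number). With that block 10 members were called in H2087 and 3 in HCC1954 parental cells between media, as without it.

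Leaving out 1 library at a time gave 0 to 6 members called in H2087 LCC against parental cells in MLM, 0 to 2 in MRM, 3 to 4 in LCC between media, 3 to 10 in parental cells between media and 1 to 3 for the difference of LCC changes. In HCC1954 it gave 4 to 6 in MLM, 2 to 4 in MRM, 0 to 6 in LCC between media, 3 to 7 in parental cells between media, 0 for the difference of LCC changes, 1 to 6 in LCC2 against LCC1 in MLM and 1 to 9 in MRM. For the HCC1954 difference of LCC changes limma called 24 of all genes and edgeR 12, DESeq2 307, the filter on a mean of 1 15, the block on library names 116, that on derivatives 429, and the fit without both outlying libraries 187. Over all genes, DESeq2 called 2885 in H2087 LCC against parental cells in MLM (1687 by limma) and 3113 in HCC1954 LCC between media (1844). Leaving out 1 library moved the count over all genes as well. In H2087 LCC against parental cells in MLM it was 2399 without LCC2, 2041 without LCC6, 1230 without LCC1 and 1053 without LCC5. The ranges of members called are therefore no result about the members alone. Without LCC5 and LCC6, 1055 were called in H2087 LCC against parental cells in MRM (1807 otherwise) and 1718 in LCC between media (4087). The block on library names called 3426 for the H2087 difference of LCC changes (1344) and 4408 in HCC1954 LCC between media, that on derivatives 5765 there, and 1 mean per derivative 2573 in HCC1954 LCC against parental cells in MLM (5535). Without both outlying libraries LCC2 against LCC1 had 9645 in MLM (6005) and 9100 in MRM (5407). Scaling to library totals moved the median over all genes by 0.105 to 0.156 in size in 6 comparisons. CDKN1C rests on as few as 31 reads.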
